A study of Mus musculus with 9 samples.

Results

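The enteroendocrine hormone genes followed here were Ghrl, Sst, Gip, Cck, Gcg, Sct, Nts, Pyy, Tac1 and Tph1, 10 of the 18193 genes measured on 9 Affymetrix arrays of mouse intestinal epithelial cells. Each gene was represented by the probe set that carried its symbol alone and had the highest mean over the 9 arrays. All 10 genes were measured, 9 of them by a single such probe set and Tac1 by 2. The cells came from untreated pups killed at postnatal day 0, with 3 arrays for each of 3 genotypes. Knockout pups were Tfr1 IEC-KO, which lack the transferrin receptor Tfr1 in intestinal epithelium. Rescue pups were Tfr1 IEC-KO;ROSA26 Tfr1R654A/+, which have the same deletion and carry, at ROSA26, an added Tfr1 with the R654A change. Control pups were Tfr1fl/fl, with floxed and undeleted alleles. Small intestine and proximal colon were incubated together for 30 min in 2 mM EDTA, and the cells shaken loose were passed through a 70 micron mesh without a sort by surface marker. The labels used here name neither the promoter that drives the recombinase, nor the sex of the pups, nor any pooling of pups. Accordingly the p-values cover only the spread among these arrays, which may be technical.

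Enteroendocrine cells are scattered single cells of the gut epithelium that sense nutrients at the lumen and release peptide hormones or serotonin from dense-core granules. They arise from crypt progenitors in which Notch signalling is low, pass through a stage marked by the transcription factor Neurog3, and switch on Neurod1 as they mature. Ghrl encodes ghrelin, which stimulates appetite. Gip encodes the incretin of K cells, Cck the hormone that contracts the gallbladder, and Sct secretin, which drives bicarbonate secretion. Gcg encodes proglucagon, the source of GLP-1 and GLP-2 in the gut and of glucagon in the pancreatic islet, and Sst encodes the inhibitory hormone of D cells of gut and islet. Nts encodes neurotensin, which promotes fat absorption, and Pyy the peptide YY of the distal gut, which slows transit. Tac1 encodes the precursor of substance P, made by some serotonin cells and by enteric neurons, and Tph1 the enzyme that starts serotonin synthesis in enterochromaffin cells and in mast cells.

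Transcription factors of this lineage of the basic helix-loop-helix family, such as Neurog3 and Neurod1, bind E-boxes, and the cyclic AMP response element (CRE) of the somatostatin promoter is a textbook target of CREB. All 10 genes matched the RefSeq promoter table of build GRCm38.p6, and the 250 bases before each start were searched on both strands for the E-box (CANNTG), the CRE (TGACGTCA) and the TATA motif (TATAAA). Hits of the E-box and TATA motif did not overlap in the windows shown. Ghrl and Gcg are shown as the called genes with the largest rises in knockout, and Sst for its CRE, with motif matches in capitals. The Ghrl window is chr6:113719912-113720161, the Gcg window chr2:62483654-62483903 and the Sst site chr16:23890874-23890903, all on the minus strand and printed 5′ to 3′.
Ghrl: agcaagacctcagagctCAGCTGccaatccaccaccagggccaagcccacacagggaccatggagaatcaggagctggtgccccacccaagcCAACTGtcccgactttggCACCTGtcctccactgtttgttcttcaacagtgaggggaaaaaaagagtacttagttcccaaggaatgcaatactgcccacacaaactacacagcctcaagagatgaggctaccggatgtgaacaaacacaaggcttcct
Gcg: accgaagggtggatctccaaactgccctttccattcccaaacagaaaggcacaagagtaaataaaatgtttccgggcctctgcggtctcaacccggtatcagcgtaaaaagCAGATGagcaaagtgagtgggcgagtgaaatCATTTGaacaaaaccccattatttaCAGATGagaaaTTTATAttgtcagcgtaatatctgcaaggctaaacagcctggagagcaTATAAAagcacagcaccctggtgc
Sst: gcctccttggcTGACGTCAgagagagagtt
The capitals in Ghrl mark 3 E-boxes, those in Gcg 3 E-boxes and 2 TATA matches, and those in Sst the CRE, between 48 and 41 bases before the start. The table holds 4 starts for Ghrl, of which the outermost was used. An E-box was found in 9 of the 10 hormone genes, all but Tph1, and in 66.2% of the 32851 windows of the table. A CRE was found in 1 of 10, against 1.55% of windows, and a TATA match in 2 of 10 (Gcg and Sct), against 12.4%. These matches describe the letters of the windows, and no binding was measured.

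Values are log2 RMA intensities, so a difference of 1 is a doubling, and levels of different genes were not compared because their probe sets differ. Across genes, arrays correlated within groups at r between 0.951 and 0.985 for knockout, 0.987 and 0.990 for rescue, and 0.994 and 0.996 for control. Tfrc, the gene of Tfr1, read 10.76, 11.16 and 9.07 in knockout, 10.91, 10.22 and 11.11 in rescue and 10.21, 10.78 and 9.88 in control arrays by its brightest probe set, which therefore did not tell the labels apart. Sex-specific transcripts moved with rescue: Xist averaged 12.47 in knockout, 6.67 in rescue and 12.18 in control arrays, and the Y-linked Eif2s3y 2.63, 9.51 and 2.78, while Kdm5d, also Y-linked, averaged 4.37, 4.48 and 4.29. Sex and rescue genotype cannot be told apart in these arrays. In bulk RNA of mixed cells, a change in the number of hormone cells and a change in RNA per cell cannot be told apart, here and in every comparison below.

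Knockout epithelium had higher levels of most hormone genes than control. Gcg rose 4.74-fold, Ghrl 3.23-fold, Cck 2.66-fold, Sst 2.32-fold, Sct 1.92-fold and Gip 1.80-fold, while Tac1, Pyy, Nts and Tph1 did not pass the test. Of the 10 genes 6 were higher and 0 lower at a limma adjusted p under 0.05, where 5.29% of all genes were higher by that rule. The knockout arrays all lay above the control arrays for 7 of 10 genes, the 6 called genes and Tac1, against 12.7% of all genes. The median change of the 10 genes was 1.08, against -0.04 over all genes, and the change was above 0 for 10 of 10, against 43.9% of all genes.

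**Figure D1:**
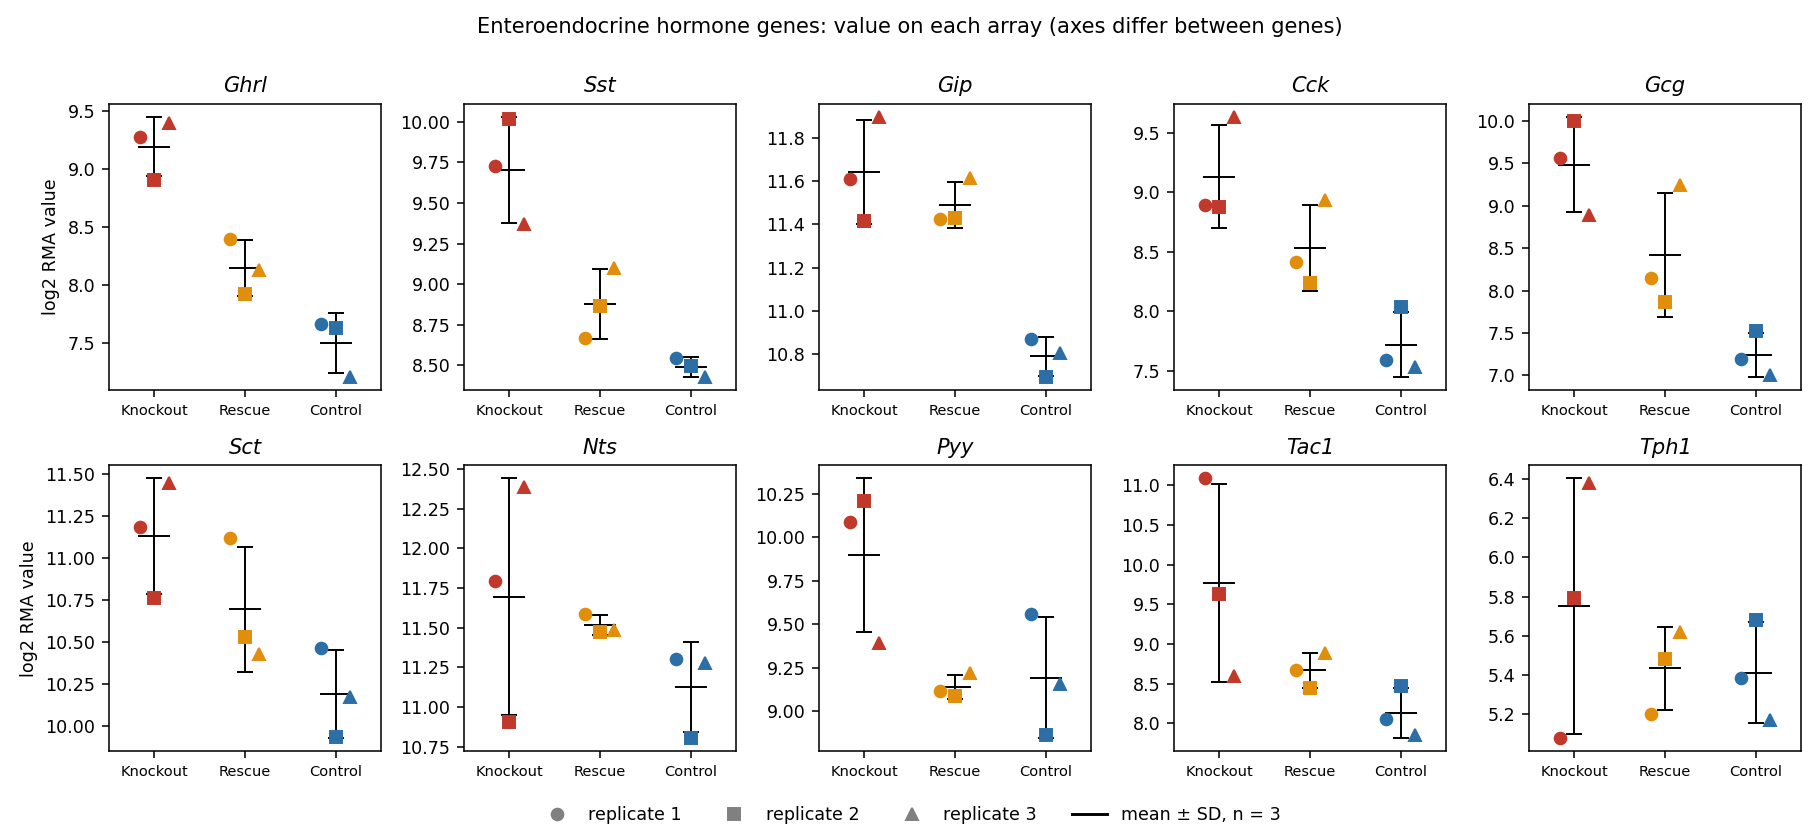
Log2 RMA value of each hormone gene (vertical axis, a separate scale per gene) in knockout, rescue and control arrays, with a symbol per replicate and bars for the mean ± SD of 3 arrays. For Ghrl, Sst, Gip, Cck, Sct, Gcg and Tac1 every knockout array lies above every control array, and the Tac1 knockout arrays spread from 8.60 to 11.09.

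Among the hormones of stomach and proximal small intestine, ghrelin showed the clearest separation. Ghrl read 9.27, 8.91 and 9.40 in knockout arrays and 7.67, 7.63 and 7.21 in control arrays. The lowest knockout array lay 1.24 above the highest control array, and the change was 1.69 ± 0.19 (SE; adjusted p = 0.0015). Gip read 11.61, 11.42 and 11.90 in knockout against 10.87, 10.69 and 10.81 in control. All arrays of this K cell hormone were bright, with little spread in control, and its smaller change of 0.85 ± 0.13 passed (adjusted p = 0.0057). Cck read 8.89, 8.88 and 9.63 in knockout and 7.59, 8.03 and 7.53 in control. Knockout replicate 3 was the highest array, and the change was 1.41 ± 0.26 (adjusted p = 0.010). Sct read 11.19, 10.77 and 11.45 in knockout against 10.46, 9.94 and 10.17 in control. The secretin groups were set apart by 0.30 between their nearest arrays, and the change of 0.94 ± 0.24 had the largest adjusted p of the called genes (0.033).

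The proglucagon gene had the largest change of the 10. Gcg read 9.566, 9.998 and 8.886 in knockout and 7.196, 7.519 and 7.003 in control arrays, a change of 2.24 ± 0.38 (adjusted p = 0.0079). Here knockout replicate 3 was the lowest of its group, yet 1.65 above the control mean. Sst, which shares the islet as a second source, read 9.73, 10.02 and 9.37 in knockout and 8.54, 8.50 and 8.43 in control. Its control arrays lay within 0.12 of each other, and the change was 1.21 ± 0.17 (adjusted p = 0.0038).

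Pyy and Nts, of the distal gut, did not pass. Pyy read 10.09, 10.21 and 9.39 in knockout and 9.56, 8.86 and 9.16 in control, a difference of 0.70 ± 0.24 (adjusted p = 0.083). Knockout replicate 3 fell inside the control range and the other two lay above it. Nts read 11.79, 10.91 and 12.39 in knockout and 11.30, 10.80 and 11.28 in control, with a difference of 0.57 ± 0.32 (adjusted p = 0.29). Here knockout replicate 2 was inside the control range and replicate 3 the highest.

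Neither of the 2 genes of serotonin cells passed. Tac1 read 11.09, 9.63 and 8.60 in knockout and 8.05, 8.48 and 7.86 in control. The groups did not overlap, but the knockout arrays spanned 2.49, and the difference of 1.64 ± 0.52 did not pass (adjusted p = 0.070). The second Tac1 probe set lay in the dimmest 40% of the table in every group, with means of 3.92 in knockout and 3.85 in control. Tph1 read 5.08, 5.79 and 6.38 in knockout and 5.39, 5.68 and 5.17 in control, levels in the dimmest 40% of genes in every group, and its difference was 0.34 ± 0.30 (adjusted p = 0.51). Its knockout arrays lay on both sides of the control arrays.

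The rises of Ghrl, Sst, Gip and Gcg passed in all 9 fits that left out 1 array. Cck missed the threshold without control replicate 3 (adjusted p = 0.051), and Sct missed it in 5 of the 9, without control replicate 1 (0.056), 2 (0.12) or 3 (0.11), knockout replicate 1 (0.088) or rescue replicate 2 (0.052). Without knockout replicate 3, Pyy (adjusted p = 0.0068) and Tac1 (0.0045) passed, and without knockout replicate 2, Nts passed (0.031).

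**Figure D2:**
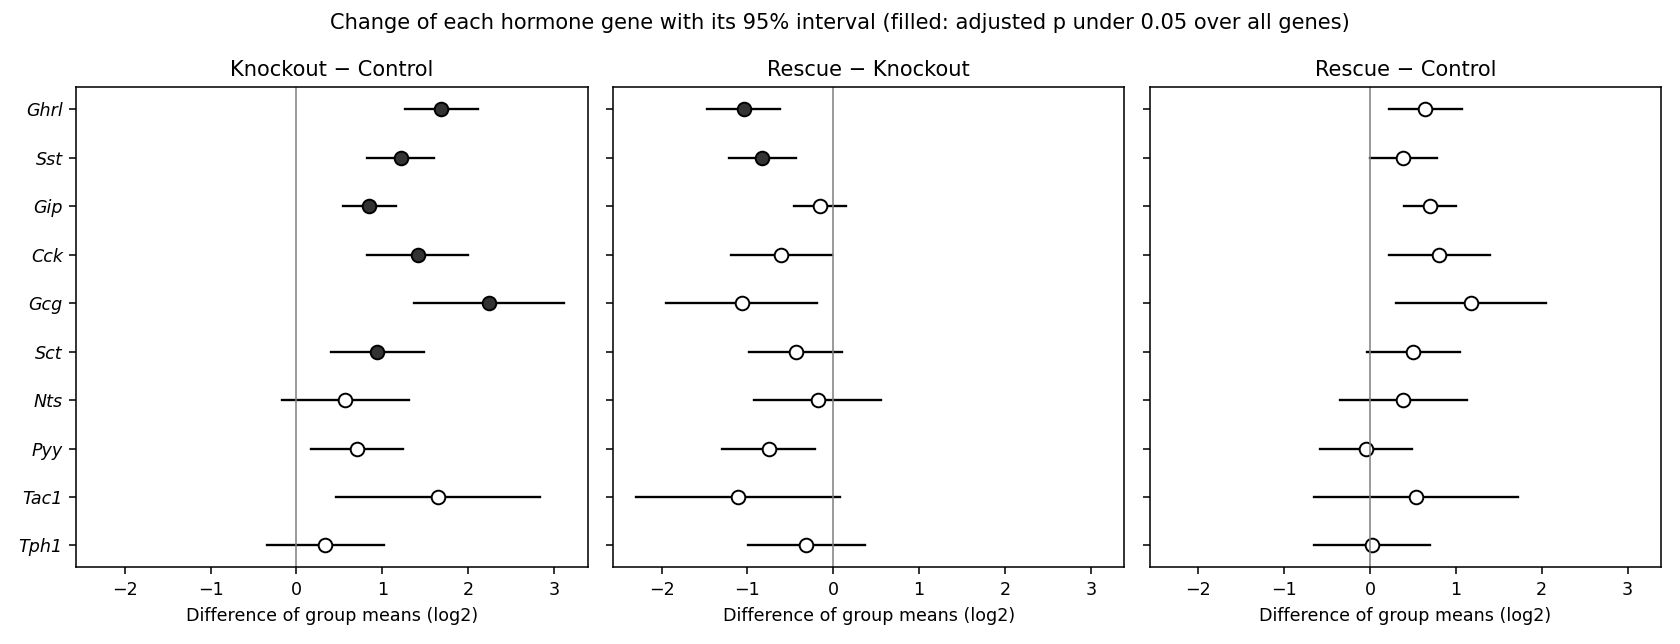
Difference of group means (log2, horizontal axis) of each hormone gene in 3 panels (knockout minus control, rescue minus knockout, rescue minus control), with bars for limma's 95% interval and filled points for an adjusted p under 0.05 over all genes. Filled points mark 6 genes in the first panel, Ghrl and Sst in the second and none in the third.

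The hormone genes were not highest in the same knockout array. Replicate 3 was the highest knockout array for Ghrl, Gip, Cck, Sct, Nts and Tph1, replicate 2 for Sst, Gcg and Pyy, and replicate 1 for Tac1. The median over the 10 genes was nonetheless close in the 3 arrays, exceeding control by 1.08 in replicate 1, 1.09 in replicate 2 and 1.18 in replicate 3. Across the 9 arrays Sst correlated with Gcg at r = 0.946 and with Pyy at r = 0.838, but with Nts at r = 0.226, while Gip correlated with Cck at r = 0.905 and with Nts at r = 0.745. These coefficients describe 9 arrays that share 3 groups, and they contain the differences between the groups.

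Markers of other cell types differed between the same arrays. The islet markers Ins2, the insulin gene, and Iapp, the amylin gene, were highest in the knockout arrays in which Gcg and Sst were highest. Ins2 read 10.87, 11.86 and 7.26 in knockout and 7.46, 7.57 and 7.57 in control arrays, and Iapp 10.51, 11.77 and 7.91 in knockout and 7.29, 7.67 and 7.27 in control. In knockout replicate 3 Ins2 lay below every control array, while Gcg was 1.65 and Sst 0.88 above control. With that array as the only knockout array, Sst passed (adjusted p = 0.021) and Gcg did not (0.070), on the assumption that a lone array varies like the other groups. Of 9 islet markers measured 1 was higher (Rbp4, 1.86 ± 0.36, adjusted p = 0.013; 5.29% of all genes were higher) and 0 lower, and Ppy, of pancreatic polypeptide cells, differed by 0.97 ± 0.49 (adjusted p = 0.22). The summed level of the list (log2 of the sum of linear values) ran over 12.27 to 13.46 in knockout, 11.32 to 12.16 in rescue and 12.28 to 12.37 in control. Slc2a2, a glucose transporter gene that enterocytes also use, made up 15.8% to 61.5% of that sum in knockout, 55.0% to 80.1% in rescue and 83.1% to 85.4% in control. Without Slc2a2 the sum ran over 10.98 to 13.10 in knockout, 9.82 to 10.43 in rescue and 9.60 to 9.73 in control. Knockout replicate 3 was the lowest knockout array. Rbp4, at 10.52 in that array and 2.36 above control, was the largest term of its sum, with Iapp at 7.91 and Ins2 at 7.26. Iapp, Ppy and Ucn3 are also in the list of other gut peptides. The islet markers G6pc2, Nkx6-1, Slc30a8 and Ucn3 were dim in every group, that is, their means ranked among the lowest 40% of genes. The part of islet RNA in Gcg and Sst was not tested beyond these values.

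By their median, exocrine pancreas markers were highest in knockout replicate 2 and rescue replicate 3. Relative to the control mean, the median of 9 such genes was 0.12, 2.17 and 0.53 in knockout arrays and -0.053, 0.0036 and 1.89 in rescue arrays. Cpa1, the carboxypeptidase A1 gene, read 5.90, 7.82 and 5.98 in knockout, 5.54, 5.72 and 7.61 in rescue and 5.83, 5.48 and 5.65 in control. Cpb1, another carboxypeptidase gene, had the same highest arrays (8.21 in knockout replicate 2 and 7.96 in rescue replicate 3). Cela1, an elastase gene, did not, at 8.46, 8.92 and 9.04 in knockout and 9.17, 7.83 and 8.97 in rescue. It differed by 0.30 ± 0.32 between knockout and control. The summed level ran over 10.48 to 12.52 in knockout, 10.27 to 12.05 in rescue and 10.51 to 10.65 in control. None of the 9 exocrine genes passed limma's test in any comparison, and none had an unadjusted p under 0.05. With both of these arrays left out, 6 of 10 hormone genes were called higher in knockout than in control. That choice was made after seeing the data. In the same fit 1736 of the 18193 genes were called between knockout and control, in either direction. The part of exocrine pancreas in the hormone values was not tested beyond these values.

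For Tac1 the knockout arrays had the same order as for the enteric neuron markers Elavl4, Stmn2 and Elavl3. Not every marker of the list had that order: Ret read 9.86, 8.58 and 9.05 in knockout, and Erbb3 was highest in knockout replicate 3. Elavl4 read 7.99, 6.57 and 5.12 in knockout and 4.79, 5.02 and 5.14 in control arrays, and Stmn2 9.79, 7.75 and 5.89 in knockout and 5.72, 5.73 and 5.72 in control. Elavl3 differed by 0.76 ± 0.32 (adjusted p = 0.15). Of 18 neuron and glia markers measured 1 was higher (Ret, 1.01 ± 0.28, adjusted p = 0.044), against 5.29% of all genes. That call was kept in 3 of the 9 leave-one-out fits. The list's summed level ran over 12.24 to 13.05 in knockout, 11.88 to 12.35 in rescue and 11.95 to 12.04 in control. Erbb3, which epithelium also expresses, made up 37.6% to 69.3% of that sum in knockout, 53.2% to 63.6% in rescue and 58.9% to 61.2% in control. Without Erbb3 it ran over 11.06 to 12.36 in knockout, 10.71 to 10.89 in rescue and 10.67 to 10.70 in control. Their part in the Tac1 values was not tested. In knockout replicate 3 Elavl4 and Elavl3 lay within the control range, and Stmn2 and Ret lay above it. Tac1 was 0.47 above the control mean in that array.

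Mast cells, which also make serotonin in rodents, were followed beside Tph1. The mast cell protease genes Cpa3, at 6.94, 7.14 and 4.75 in knockout and 4.68, 4.71 and 4.70 in control, and Cma1, at 7.02, 6.75 and 5.27 in knockout and 4.86, 5.17 and 5.01 in control, were highest in knockout replicates 1 and 2, while Tph1 was highest in replicate 3. Of 11 mast cell markers 8 were dim in every group, among them Cpa3 and Ms4a2, of the IgE receptor. Of the 11 markers 2 were higher, Tpsab1 and Mcpt2, both also dim in every group, against 5.29% of all genes. These calls were kept in 5 and 2 of the 9 leave-one-out fits. The summed level ran over 8.67 to 9.55 in knockout, 8.58 to 8.69 in rescue and 8.52 to 8.59 in control. Their part in the Tph1 values was not tested.

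Stomach markers bear on Ghrl, since the stomach is the main source of ghrelin. Gkn1, a gastrokine gene, read 7.62, 7.45 and 8.94 in knockout and 6.75, 6.86 and 6.46 in control. It was the sole stomach marker of 11 that passed (1.32 ± 0.36, adjusted p = 0.043), where 5.29% of all genes were higher. That call was kept in 2 of the 9 fits without 1 array. Gkn2 read 7.44, 7.43 and 8.29 in knockout and 6.43, 7.16 and 6.81 in control (0.92 ± 0.38, adjusted p = 0.14). Gkn1 and Gkn2 were highest in knockout replicate 3, the highest array for Ghrl. Gkn3 read 11.80, 12.67 and 6.58 in knockout and 9.96, 11.62 and 11.30 in control, where knockout replicate 3 was the lowest of these 6. Cym read 8.74, 8.84 and 7.79 in knockout and 9.79, 10.99 and 10.32 in control (-1.91, limma adjusted p = 0.062). Of the 11 stomach markers the change was above 0 for 5 and below 0 for 6, with a median of -0.10. The summed stomach level ran over 11.09 to 13.24 in knockout, 10.41 to 13.11 in rescue and 11.69 to 12.85 in control, and Aqp5, Atp4a, Muc5ac, Pgc and Sox2 were dim in every group. The part of stomach cells in the Ghrl values was not tested.

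Fibroblast markers separated the knockout arrays most. Col1a1 read 10.88, 10.69 and 7.33 in knockout and 6.85, 7.44 and 7.34 in control, and the median of 12 fibroblast genes exceeded the control mean by 4.16, 3.22 and 0.26 in these knockout arrays. Col1a2 differed by 2.87 ± 0.88 (adjusted p = 0.064) and Col3a1 by 2.87 ± 0.95 (0.081). Of the 12 genes 3 were higher, against 5.29% of all genes: Pdgfra by 1.95, Col6a2 by 2.51 and Col6a1 by 2.68. These calls were kept in 5, 1 and 1 of the 9 leave-one-out fits. The summed level ran over 11.52 to 15.06 in knockout, 11.60 to 12.44 in rescue and 10.56 to 11.33 in control. With the fibroblast mean as a covariate 5 hormone genes were called between knockout and control: Gcg lost its call at a change of 1.69 (adjusted p = 0.079) and Sct at 1.202 (0.060), and Tph1 gained one at 1.13 (0.032). In knockout replicate 3, the array with the lowest median of fibroblast genes in its group, 9 of 10 hormone genes, all but Pyy, lay above every control array. Of all genes 37.5% did so in that array. Ghrl was 1.89, Sst 0.88, Gip 1.11, Cck 1.91, Sct 1.25, Nts 1.26 and Tph1 0.97 above the control mean in it. Gcg was 1.65, Tac1 0.47 and Pyy 0.20 above it. That array was not at the control level for every marker: Gkn1 was 2.26, Gkn2 1.49, Rbp4 2.36 and Pdgfra 1.22 above the control mean in it.

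Of the epithelial lineages, 3 of 11 enterocyte markers were lower in knockout than in control (Cdx1, Lct and Cdx2; 8.77% of all genes were lower) and 0 higher. Alpi differed by 0.06 ± 0.11, Fabp2 by -0.04 ± 0.09 and Apoa1 by 0.02 ± 0.08. The means of these genes lay at percentiles of 99.8 to 100 of all genes in every group. At the top of the range a difference may be understated, and these genes also weigh in the summed enterocyte level. Of 9 goblet cell markers 2 were higher (Zg16, by 3.64, and Spink4, against 5.29% of all genes). The change was above 0 for 9 of 9, against 43.9% of all genes. The mucin gene Muc2 differed by 0.05 ± 0.32, Tff3 by 0.48 ± 0.18 and Fcgbp by 0.53 ± 0.20. The summed goblet level ran over 14.94 to 15.05 in knockout, 14.84 to 15.41 in rescue and 13.75 to 14.41 in control, so a rise in knockout was not particular to the hormone genes. Of 7 tuft cell markers limma called 0, with 1 at an unadjusted p under 0.05, and Dclk1 differed by 0.64 ± 0.19 (adjusted p = 0.054), Trpm5 by -0.16 ± 0.14 and Pou2f3 by -0.03 ± 0.08. No enterocyte marker was dim in every group, and the summed enterocyte level ran over 16.65 to 16.84 in knockout, 16.82 to 16.88 in rescue and 16.85 to 16.88 in control.

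**Figure D3:**
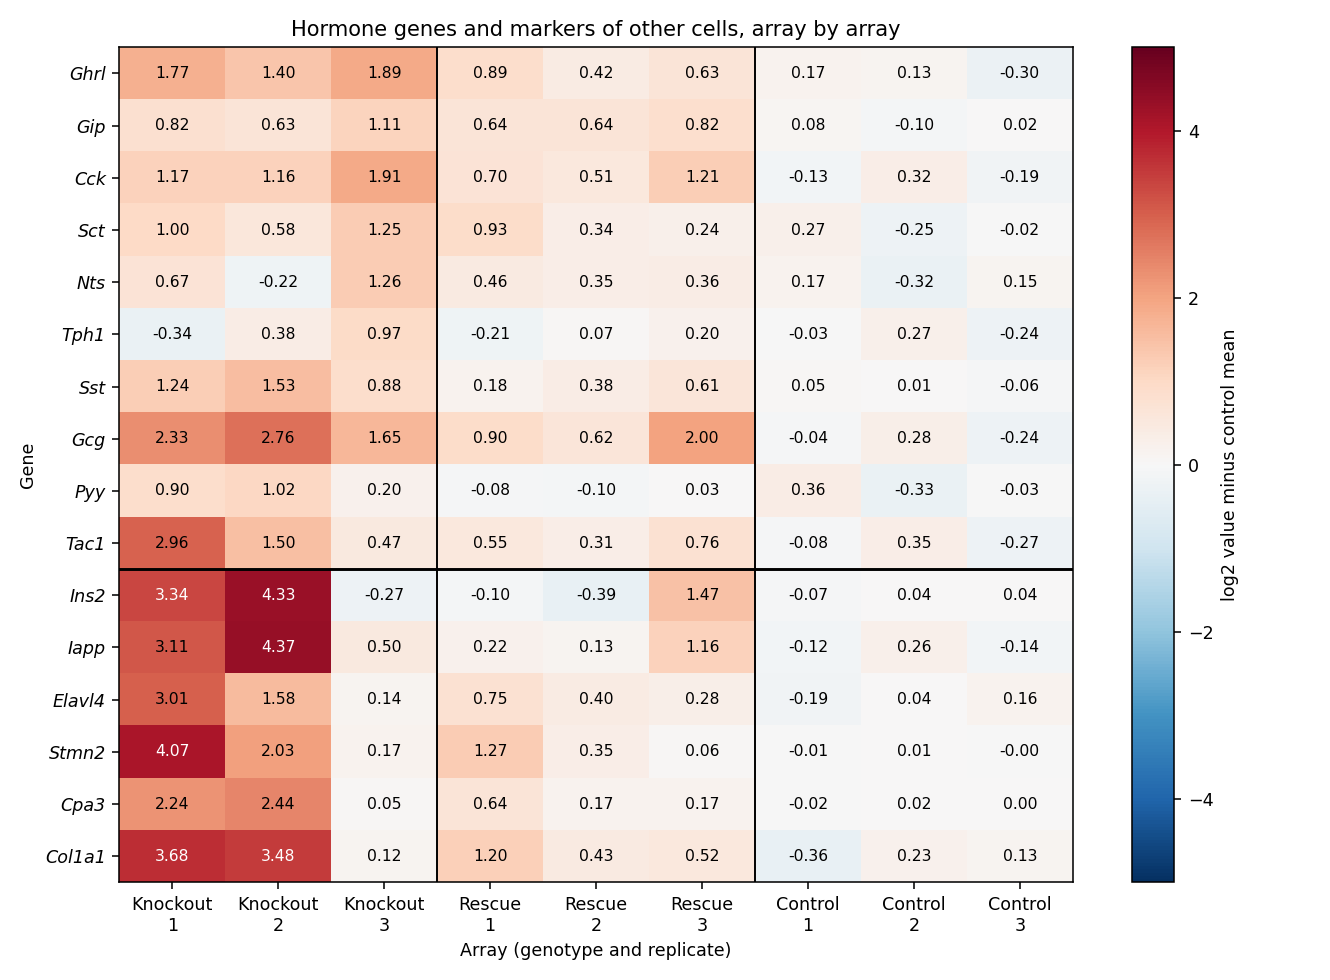
Log2 value minus the control mean (colour and printed number) of the 10 hormone genes and of 6 markers of other cells (rows) on each array (columns, knockout, rescue and control replicates 1 to 3). The markers Ins2 and Iapp (islet), Elavl4 and Stmn2 (neurons), Cpa3 (mast cells) and Col1a1 (fibroblasts) lie between -0.27 and 0.50 in knockout replicate 3, where Ghrl is 1.89 and Cck 1.91 above control. Other markers, not drawn, were higher in that array, among them Gkn1 (2.26 above control) and Rbp4 (2.36).

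Rescue was then set against knockout, a contrast in which the R654A receptor and the sex-specific transcripts both differ. Ghrl fell 2.06-fold and Sst 1.77-fold in rescue, and the other 8 genes did not pass. Of the 10 genes 2 were lower and 0 higher at a limma adjusted p under 0.05, where 1.08% of all genes were lower by that rule. All rescue arrays lay below all knockout arrays for 3 genes, Ghrl, Sst and Pyy, against 7.5% of all genes. The median difference was -0.68, against 0.04 over all genes, and all 10 differences were below 0, against 42.9% of all genes. This comparison shares the knockout arrays with the one above, so an extreme knockout value enters both.

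Ghrl read 8.40, 7.92 and 8.13 in rescue against 9.27, 8.91 and 9.40 in knockout, a change of -1.04 ± 0.19 (adjusted p = 0.032). The groups were separated by 0.51 between the nearest arrays. Sst read 8.67, 8.87 and 9.10 in rescue against 9.73, 10.02 and 9.37 in knockout, a change of -0.83 ± 0.17 (adjusted p = 0.0498). The Sst call lay at the threshold and was kept in 1 of the 9 fits without 1 array, that without knockout replicate 3 (0.0040), with adjusted p of 0.093 to 0.13 in the others. The Ghrl call was lost without control replicate 1 (0.061) or 2 (0.063), knockout replicate 1 (0.087), or rescue replicate 2 (0.095) or 3 (0.11).

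Pyy read 9.12, 9.09 and 9.22 in rescue against 10.09, 10.21 and 9.39 in knockout. The rescue arrays lay within 0.13 of each other and below every knockout array, but the difference of -0.75 ± 0.24 did not pass (adjusted p = 0.14). Gcg read 8.143, 7.860 and 9.241 in rescue against 9.566, 9.998 and 8.886 in knockout, with a difference of -1.07 ± 0.38 (adjusted p = 0.19). Rescue replicate 3 stood above the other rescue arrays. It was also the rescue array with the highest Ins2 (9.00, against 7.43 and 7.15) and the highest median of the exocrine markers. Tac1 read 8.67, 8.44 and 8.89 in rescue against 11.09, 9.63 and 8.60 in knockout, with a difference of -1.10 ± 0.52 (adjusted p = 0.29). Without knockout replicate 3, Gcg (adjusted p = 0.046), Pyy (0.0096) and Tac1 (0.024) passed as lower in rescue. Sex-specific transcripts changed with this comparison, as given above.

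The remaining 5 genes did not pass. Cck read 8.42, 8.23 and 8.93 in rescue against 8.89, 8.88 and 9.63 in knockout (-0.61, 95% interval -1.19 to -0.02, adjusted p = 0.25). Sct read 11.12, 10.53 and 10.43 in rescue against 11.19, 10.77 and 11.45 in knockout (-0.44, interval -0.98 to 0.10). Gip read 11.43, 11.43 and 11.61 in rescue against 11.61, 11.42 and 11.90 in knockout (-0.15, interval -0.45 to 0.15). This difference was the smallest of the 10. Nts read 11.59, 11.47 and 11.48 in rescue against 11.79, 10.91 and 12.39 in knockout (-0.18, interval -0.92 to 0.56). Tph1 read 5.20, 5.48 and 5.62 in rescue against 5.08, 5.79 and 6.38 in knockout (-0.31, interval -0.99 to 0.37).

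The comparison of rescue with control asks what remained of the knockout pattern. Sex-specific transcripts differ here too, so sex and rescue genotype cannot be told apart. No hormone gene passed limma's test (0 of 10, with 4 at an unadjusted p under 0.05, all higher, namely Gip, Ghrl, Cck and Gcg), where 0.126% of all genes were called and 2.25% were higher at an unadjusted p under 0.05. All rescue arrays lay above all control arrays for 6 genes, Ghrl, Sst, Gip, Cck, Gcg and Nts, against 6.74% of all genes. The median difference was 0.52, against -0.01 over all genes.

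The rescue arrays of Gip, at 11.43, 11.43 and 11.61, lay above the control arrays, at 10.87, 10.69 and 10.81, by 0.70 ± 0.13 (1.62-fold, adjusted p = 0.13). Those of Ghrl, at 8.40, 7.92 and 8.13 against 7.67, 7.63 and 7.21 in control, lay above by 0.64 ± 0.19 (adjusted p = 0.40). Both groups of Ghrl were apart by 0.25 at their nearest arrays. Gcg differed by 1.18 ± 0.38 (adjusted p = 0.49), with rescue replicate 3 alone 2.00 above the control mean. Cck differed by 0.81 ± 0.26 (adjusted p = 0.48), Sst by 0.39 ± 0.17 (0.76), Sct by 0.50 ± 0.24 (0.81), Tac1 by 0.54 ± 0.52, Nts by 0.39 ± 0.32, Tph1 by 0.02 ± 0.30 and Pyy by -0.05 ± 0.24 (the last 4 at adjusted p = 1.0). Pyy was the gene whose rescue mean lay below the control mean. Without knockout replicate 3, which enters this comparison only through the shared spread, Gip passed (adjusted p = 0.028).

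Set side by side, the rescue difference from control was 82.3% of the knockout difference for Gip, 57.2% for Cck, 53.5% for Sct, 52.4% for Gcg, 38.2% for Ghrl and 32.0% for Sst. The Sct share was 30.9% without rescue replicate 1, and the Gcg share 34.0% without rescue replicate 3. Without any 1 array the shares ran over 72.8% to 96.9% for Gip, 42.9% to 69.4% for Cck, 30.8% to 44.9% for Ghrl and 23% to 40.6% for Sst. They use the control arrays in both terms, and sex differs together with genotype in the rescue term.

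Genes of the hormone granule were followed as the machinery that stores and cleaves the prohormones. In knockout, 8 of 25 measured granule genes were higher than in control and 0 lower (5.29% of all genes were higher, and 14.1% were called in either direction). Cpe, the carboxypeptidase that trims prohormones, read 12.16, 11.99 and 12.49 in knockout, 10.71, 10.31 and 9.66 in rescue and 8.44, 8.60 and 8.37 in control. No array of a group overlapped another group, and Cpe rose 13.4-fold in knockout (3.74 ± 0.25, adjusted p = 2.5e-04). Cpe is not restricted to hormone cells, and its levels are given here without a source. Scg2, a secretogranin, rose 3.69-fold (1.88 ± 0.30, adjusted p = 0.0058), Scg5, the chaperone of prohormone convertase, at least 4.19-fold, a lower bound because its control level was dim (2.07 ± 0.30, adjusted p = 0.0042), Scg3 2.17-fold (adjusted p = 0.019) and Chgb, chromogranin B, 1.92-fold (adjusted p = 0.013). Scg2 read 9.14, 8.41 and 7.95 in the knockout replicates, Scg3 8.35, 7.45 and 7.34 and Scg5 7.40, 6.28 and 6.01. That is the order of the neuron markers Stmn2 and Elavl4 and of the fibroblast marker Col1a1. Chgb, at 10.74, 10.69 and 10.95 in knockout against 9.82, 10.09 and 9.65 in control, did not follow that order. In knockout replicate 3 Scg2 was 1.34, Scg3 0.74 and Scg5 1.51 above the control mean. There Stmn2 was 0.17, Elavl4 0.14 and Ret, of the same marker list, 0.90 above it. The part of neurons and fibroblasts in these granule genes was not tested.

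Chga, chromogranin A, the usual marker of enteroendocrine cells as a class, read 7.87, 8.39 and 8.42 in knockout, 6.93, 7.51 and 7.43 in rescue and 7.74, 7.84 and 7.47 in control. Its difference of 0.55 ± 0.20 between knockout and control did not pass (adjusted p = 0.11), nor did that of -0.94 ± 0.20 between rescue and knockout (adjusted p = 0.056). Between rescue and knockout 2 of 25 granule genes were lower, against 1.08% of all genes. They were Cpe (-1.99 ± 0.25, adjusted p = 0.0091) and Scg5 (at least 2.82-fold, adjusted p = 0.044). Between rescue and control limma called 0 of 25, with 3 at an unadjusted p under 0.05 and Cpe at 1.76 ± 0.25 (adjusted p = 0.056). Cpe, Scg2 and Scg5 passed between knockout and control in all 9 fits without 1 array, Chgb in 7 and Scg3 in 6, and Scg5 passed between rescue and knockout in 2 of 9.

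**Figure D4:**
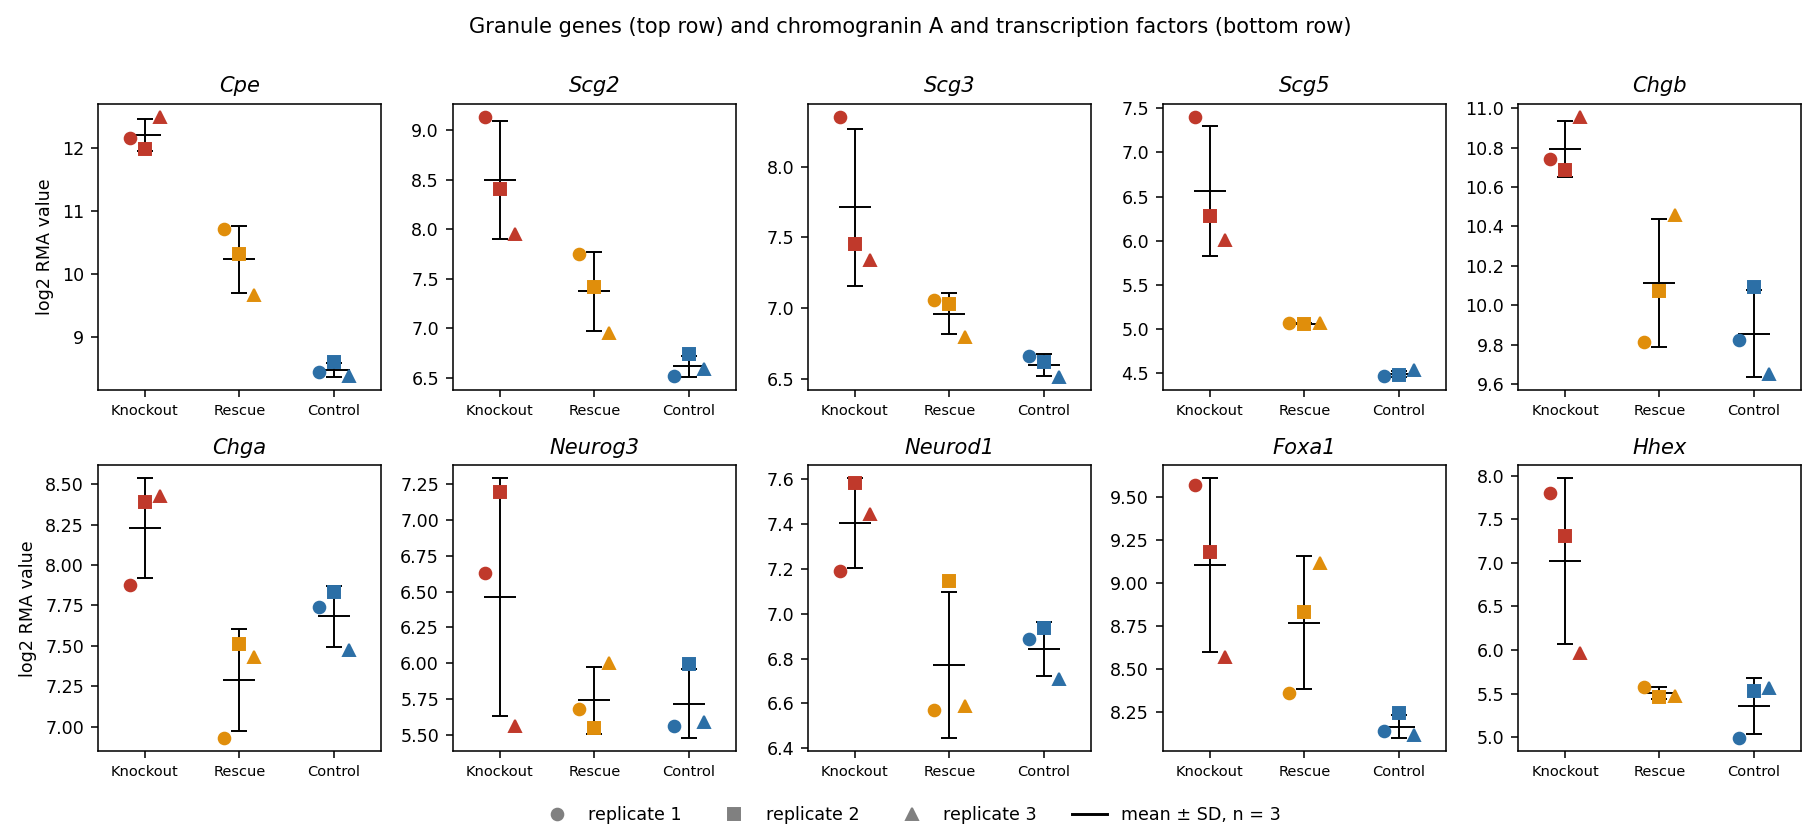
Log2 RMA value (vertical axis, a separate scale per gene) of 5 granule genes (upper row) and of Chga and 4 transcription factors (lower row) in knockout, rescue and control arrays, with a symbol per replicate and bars for the mean ± SD of 3 arrays. The Cpe groups do not overlap, with knockout highest and control lowest, and the Neurog3 knockout arrays spread from 5.56 to 7.19.

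Transcription factors of the lineage were followed next. Of 21 measured, 3 were higher in knockout than in control, where 5.29% of all genes were higher, and 0 lower, and 11 of the 21 were dim in every group. Neurog3, which commits progenitors to the lineage, read 6.63, 7.19 and 5.56 in knockout and 5.56, 5.99 and 5.59 in control (0.75 ± 0.36, adjusted p = 0.21). Neurod1 read 7.19, 7.58 and 7.44 in knockout and 6.89, 6.94 and 6.71 in control, without overlap but below the threshold of the test (0.56 ± 0.17, adjusted p = 0.067). The called genes were Hhex, a homeobox gene needed for delta cells of the islet, at least 3.17-fold higher (1.66 ± 0.40, adjusted p = 0.030), Myt1, at least 1.32-fold (adjusted p = 0.034), and the forkhead gene Foxa1, 1.92-fold (adjusted p = 0.047). Hhex read 7.80, 7.31 and 5.96 in the knockout replicates. Without 1 array, Hhex and Myt1 passed in 3 of 9 fits each and Foxa1 in 2, with adjusted p of up to 0.14. Between rescue and knockout 0 of 21 passed in limma's test, with 3 at an unadjusted p under 0.05, and between rescue and control 0 of 21, with 1 unadjusted.

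Notch signalling restrains the choice of secretory fates in the gut. Of 11 Notch genes measured, 3 were higher in knockout than in control, where 5.29% of all genes were higher, and 0 lower. Jag1, a ligand, rose 4.98-fold (2.32 ± 0.38, adjusted p = 0.0066), the receptor gene Notch2 2.23-fold (1.16 ± 0.19, adjusted p = 0.0062) and the coactivator gene Maml1 by 0.58 ± 0.15 (adjusted p = 0.039). Jag1 read 9.57, 8.96 and 7.99 in knockout and 6.16, 6.75 and 6.66 in control. Its knockout arrays ranked like those of the fibroblast marker Col1a1 and of the neuron marker Stmn2. The part of either cell type was not tested. In knockout replicate 3 Jag1 was 1.47 above the control mean, Col1a1 0.12 and Pdgfra, another fibroblast marker, 1.22. Notch1 read 8.46, 8.08 and 6.90 in knockout and 6.91, 7.38 and 7.10 in control and did not pass (adjusted p = 0.25). Notch2 was lower in rescue than in knockout (-1.05 ± 0.19, adjusted p = 0.031), the sole call of 11, where 1.08% of all genes were lower. It passed in 2 of the 9 fits without 1 array. Maml1 passed between knockout and control in 3 of the 9.

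Genes of serotonin handling did not follow the hormone genes. Of 9 measured, 2 were lower in knockout than in control and 0 higher, where 8.77% of all genes were lower. Qdpr, which regenerates the cofactor of tryptophan hydroxylase, read 12.41, 12.37 and 12.52 in knockout, 13.07, 13.07 and 13.01 in rescue and 13.43, 13.24 and 13.28 in control. It fell by 0.88 ± 0.09 in knockout (adjusted p = 0.0011) and rose by 0.62 ± 0.09 in rescue relative to knockout (adjusted p = 0.016; 1.23% of all genes were higher in that contrast). Maob, a monoamine oxidase gene, fell by 0.96 ± 0.19 in knockout (adjusted p = 0.015). Both genes are also used outside serotonin cells. Ddc, the decarboxylase that makes serotonin, differed by 0.20 ± 0.43 (adjusted p = 0.81), and Slc18a1, the vesicular monoamine transporter of enterochromaffin cells, by -0.67 ± 0.22 (adjusted p = 0.082), with 8.51, 8.03 and 8.96 in knockout and 9.22, 8.94 and 9.36 in control.

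Among 11 other gut peptides 2 were higher in knockout than in control, against 5.29% of all genes, and 0 lower. Nucb2, the precursor of nesfatin, rose 2.26-fold (1.18 ± 0.16, adjusted p = 0.0030), with 7.70, 7.91 and 7.64 in knockout, 7.02, 7.36 and 6.89 in rescue and 6.43, 6.81 and 6.47 in control. Cartpt, a peptide gene also of neurons, rose at least 2.92-fold (adjusted p = 0.032), with 7.80, 6.34 and 6.07 in knockout, and passed in 4 of the 9 fits without 1 array. Insl5, of colonic L cells, read 8.443, 7.626 and 8.283 in knockout and 6.995, 7.219 and 6.983 in control (1.05 ± 0.36, adjusted p = 0.089). Gast, the gastrin gene, was dim in every group and differed by 0.00 ± 0.13.

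Of 12 sensing genes measured, 1 was higher in knockout than in control, against 5.29% of all genes, and 0 lower. Ffar4, a receptor for long-chain fatty acids, rose 2.07-fold (1.05 ± 0.26, adjusted p = 0.030) and passed in 6 of the 9 fits without 1 array. Ffar2, a receptor for short-chain fatty acids, went the other way without passing, at 7.71, 8.02 and 7.69 in knockout and 8.94, 8.40 and 8.77 in control (-0.90 ± 0.29, adjusted p = 0.077). Of 21 receptors for the hormones 0 passed limma's test between knockout and control, 2 had an unadjusted p under 0.05, and 17 were dim in every group, among them Ghsr, the ghrelin receptor, and Sstr1. Of the sensing genes, receptors and other gut peptides, limma called 0 between rescue and knockout, with 1, 2 and 6 at an unadjusted p under 0.05, and 0 between rescue and control, with 1, 0 and 1.

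Outside these lists, the genes most like the mean of the 10 centred hormone genes over the 9 arrays were Golm1 (Pearson r = 0.985), Lyz1 (0.984), Tmem128 (0.978), Mboat1 (0.975) and Basp1 (0.972). For Ghrl the nearest were Csrnp2 (0.975) and Cgnl1 (0.974), for Sst Slc11a1 (0.992) and Ccng1 (0.984), for Gip Lipf (0.982) and Scnn1g (0.972), and for Cck Ada (0.971) and Cldn3 (0.963). Those nearest to Gcg were Polk (0.957) and Ccnd2 (0.957), and to Sct Ep300 (0.984) and Hbegf (0.968). Nts was nearest to Gm15050 (0.973) and Ccng2 (0.958), Pyy to Wdr35 (0.966) and Kcp (0.961), Tac1 to Ssh2 (0.986) and Rai2 (0.985), and Tph1 to Slc16a5 (0.960) and AI606473 (0.934). These are the highest correlations among those of the 18193 genes that lie outside the lists. They run over 9 arrays that share 3 groups and are given as a description.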

How the data were processed

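RNA of intestinal epithelial cells was read on 9 arrays, 3 each of knockout, rescue and control pups. The deposited values are log2 values, 1 per probe set and array, and the authors used RMA and Partek 6.5, per the submitters' processing notes. What each tool did, and whether probe sets were filtered, is not stated in these notes. They were used as deposited, with no filter, floor or scaling, and array medians lay between 5.93 and 6.00. A gene is called dim in a group where its mean ranks among that group's lowest 40%. Background compresses such values, so a fold whose lower group is dim is written with "at least". Of 45101 probe sets 34958 carried 1 symbol in the 2016 platform annotation, 932 several and 9211 none, and 18193 genes were formed from 34945 of them by the brightest probe set. Of 18194 Entrez identifiers 18032 matched a current gene. No 2 columns were identical (0 of 36 pairs). Precision is limited by the number of arrays, with a median standard error of 0.147 for a change.

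Group means were fitted over all 9 arrays with limma 3.58.1 (lmFit and eBayes) in R 4.3.3, with tables read by version 1.17.8 of data.table. Tests were two-sided and adjusted over all genes by Benjamini and Hochberg, with a threshold of 0.05, and the fit was tested on simulated data. Errors are limma's standard errors from 3 arrays per group. The members and the 18 gene lists were chosen with earlier results of these data known. Named are all 10 hormone genes; in each pathway list its first 2 members and up to 5 called genes of smallest p; in each marker list its first 3 members and up to 3 called genes; Tfrc; and the nearest genes by correlation. Of 248 listed symbols 217 were measured. Exceptions named after their values were seen are Slc2a2, Erbb3, Cym and the islet, stomach and transcription factor genes said to be dim. Promoter windows are RefSeq's, build GRCm38.p6. Replicate numbers were not used as pairs in the main fit. Deviations of same-numbered arrays from their group means correlated between -0.22 and 0.40, above 0.1 in 2 of 9 pairs. With 3 arrays per group such a check cannot exclude a pairing, so a replicate block was among the alternatives. The alternatives tried were other probe set rules, normalizations, variance models, covariates and left-out arrays.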

Additional observations from a re-analysis of the deposited data

How the results depend on the processing

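The 10 hormone genes gave 657 values under 22 alternatives, of which 21 were planned. Of these values 595 kept their direction and their side of the threshold, 34 lost a call, 18 gained one and 10 changed sign. The count of hormone genes called between knockout and control was 6, and 4 to 8 over the 9 fits without 1 array. That between rescue and knockout was 2. It was 1 with arrays centred on their median, with eBayes trend and robust, with the fibroblast covariate, without probe sets ending in _x_at or _s_at, with every probe set tested on its own and without knockout replicates 1 and 2 together. It was 0 with the arrays of the compared groups only, with the replicate block and without knockout replicate 2 and rescue replicate 3 together (chosen after seeing the data), 4 with array quality weights, and 0 to 5 without 1 array. Between rescue and control it was 0, and 1 with the compared groups only, array weights, the fibroblast covariate or without knockout replicates 1 and 2 together, and 0 to 1 without 1 array.

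Over all genes, 2559 were called between knockout and control, 1655 with the compared groups only, 6395 with array weights and 936 to 4998 without 1 array. Between rescue and knockout 420 were called, 30 with the compared groups only, 2453 with array weights, 257 with the replicate block, 935 with the fibroblast covariate, 1096 without knockout replicates 1 and 2 together, 54 without knockout replicate 2 and rescue replicate 3 together and 105 to 2793 without 1 array. Between rescue and control 23 were called, 15 after quantile normalization, 149 with the compared groups only, 14 with trend and robust, 355 with array weights, 12 with the replicate block, 111 with the fibroblast covariate, 149 without knockout replicates 1 and 2 together, 7 without knockout replicate 2 and rescue replicate 3 together and 2 to 136 without 1 array. The cause was not tested for any of these.

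Under the replicate block, Ghrl (adjusted p = 0.051) and Sst (0.088) lost their calls between rescue and knockout, while 6 hormone genes were called higher in knockout than in control. Nts changed by -0.056 between knockout and control and by 0.38 between rescue and knockout with array weights, and by -0.58 to 0.17 between rescue and knockout without 1 array. Tph1 changed by -0.65 to 0.00018 between rescue and knockout and by -0.10 to 0.16 between rescue and control without 1 array, and by -0.069 without knockout replicate 2 and rescue replicate 3 together. Tac1 changed by 0.066 between rescue and knockout without knockout replicates 1 and 2, and Pyy by -0.21 to 0.13 between rescue and control without 1 array. Tph1 has no value once the dimmest 40% of genes are left out. For dim genes, the signal over background limits what a change can show.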
